A study of Mus musculus with 22 samples.

Results

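The macrophage inflammatory protein chemokines Ccl3, Ccl4, Ccl5, Ccl6 and Ccl9 and their receptor Ccr1 were followed in the lungs of mice given carbon nanotubes. The members are all probes whose RefSeq accession on the array belongs to 1 of these 6 genes. There were 6 such probes, 1 for each gene, among 55681 probes in all, of which 26413 could be named, for 20018 genes. All mice were female C57BL/6, 8 weeks old at the start, and received a single intratracheal instillation 24 h before the right lung was taken. The 5 controls received the vehicle (saline with lavage fluid), and the exposed mice received Mitsui7, a long and rigid multiwalled carbon nanotube, in the same vehicle. There were 6 mice at 18 µg, 5 at 54 µg and 6 at 162 µg, and all 3 doses were compared with the same 5 controls. Lung RNA labelled with Cy5 was hybridised together with a universal mouse reference RNA labelled with Cy3, a pool from 11 mouse cell lines, so the values below are log2 ratios, lung over reference. A ratio was compared between mice for 1 probe and never between probes, and dyes were not swapped.

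Chemokines of the CC family are small secreted proteins that attract leukocytes by binding G protein-coupled receptors. Ccl3 (macrophage inflammatory protein 1α) and Ccl4 (macrophage inflammatory protein 1β) are induced in activated macrophages and other leukocytes. Both attract monocytes and T cells, and Ccl3 is a ligand of Ccr1. Ccl5, also named RANTES, is made by T cells, NK cells and other cells. Ccl6 and Ccl9 are ligands of Ccr1 that myeloid cells express without an inflammatory stimulus. Ccr1 itself is carried by monocytes, neutrophils and other leukocytes.

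In the RefSeq table of assembly GRCm38.p6 the ligand genes lie together on chromosome 11, in the order Ccl5, Ccl9, Ccl6, Ccl3 and Ccl4, and Ccr1 lies on chromosome 9. Promoters of 4 of the 6 members were in the RefSeq promoter table of that assembly. Among them, Ccl3 was called at 162 µg and its neighbours Ccl6 and Ccl9 were not, and the difference between these genes was not tested. For these 3 ligand genes the 150 bases before the annotated transcript start are shown. Each is read 5′ to 3′ on the minus strand, and capitals mark the matches to the motifs named below.
Ccl3, chr11:83649379-83649528: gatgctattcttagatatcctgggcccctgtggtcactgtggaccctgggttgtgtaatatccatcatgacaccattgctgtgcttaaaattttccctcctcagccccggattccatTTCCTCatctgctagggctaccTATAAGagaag
Ccl6, chr11:83593088-83593237: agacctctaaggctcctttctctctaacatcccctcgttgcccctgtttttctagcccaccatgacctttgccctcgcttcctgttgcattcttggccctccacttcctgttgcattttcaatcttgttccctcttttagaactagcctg
Ccl9, chr11:83578637-83578786: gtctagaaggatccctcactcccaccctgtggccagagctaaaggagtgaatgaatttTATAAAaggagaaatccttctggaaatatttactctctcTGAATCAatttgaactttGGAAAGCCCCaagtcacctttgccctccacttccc

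Over 250 bases before the start, 6 patterns of letters were searched. Ccl3 held the letters TATAAG, close in spelling to the TATA box, 11 to 6 bases before the start. Whether they act as a TATA box at that place was not tested. Ccl3 also held the core GAGGAA of sites for the myeloid factor PU.1, read on the other strand as TTCCTC, 33 to 28 bases before the start. Of 32817 promoters of that length, 4.01% held TATAAG on the coding strand and 23.3% held GAGGAA on either strand. Ccl9 held TATAAA (in 7.6% of promoters) 92 to 87 bases before the start. It held an AP-1 pattern TGANTCA on either strand (6.75%) and a match to the NF-kB consensus on either strand (7.25%). It also held TATAAG further upstream, outside the stretch printed. None of the 6 patterns was found in the Ccl6 window. The C/EBP pattern TTGCNNAA, in 9.57% of promoters, was in none of the 4 windows, and that of Ccr1 held GAGGAA and the NF-kB consensus. No 2 of the matches printed overlap. A match is a description of the letters, not of a factor at work.

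A probe was called changed at an adjusted p of at most 0.05 (Benjamini-Hochberg, over all probes) and at least 1.5-fold in limma, with dose and slide in the model, provided it was expressed. Expressed means a Cy5 signal above a limit set by the negative control spots of the array on 80% or more of a group's arrays. The 5 ligands were expressed and Ccr1 was not. The 7 slides held 3 or 4 arrays each and at most 1 mouse of each group, and 2 of them had no control. Of all probes 39516 were expressed, and per array the share of probes above the limit ran from 70.4% to 77.5% in controls and from 50.3% to 83.5% at 162 µg. All 8 genes of a list of lung epithelium and endothelium were expressed, and none was called at any dose. Calls were rare among all expressed probes too (18 µg 1.47%, 54 µg 0.23%, 162 µg 2.44% up and 2.59% down). A list of 8 genes therefore cannot show whether the share of lung tissue was stable. Its mean per mouse, set against the control mean, spanned -0.40 to 0.29 in controls. The span was -0.72 to 0.57 for 18 µg, -1.11 to 0.38 for 54 µg and -0.30 to 0.67 for 162 µg.

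Among the 5 measurable members, none was called at 18 µg (background 1.47% of expressed probes) and none at 54 µg (background 0.23%). With p unadjusted, limma put 1 of them below 0.05 at 18 µg, where 20% of expressed probes were, and 3 at 54 µg, where 10.9% were. At 162 µg, 2 were called. Ccl3 rose 2.7-fold, against a background of 2.44% of expressed probes called higher, and Ccl5 fell 1.93-fold, against 2.59% called lower. That background split, 48.5% of calls higher, was 21.8% with arrays centred on their median in place of loess and 33.3% with no normalization. Over the 5 ligands the median log2 change was 0.73, 0.53 and 0.58 with rising dose, and over all expressed probes it was -0.01 at each dose. The median of 5 ligands is the value of 1 gene, at each dose Ccl9, which was not called. The ligands did not move together, as the estimates of Ccl5 were below 0 and those of Ccl6 near 0.

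**Figure D1:**
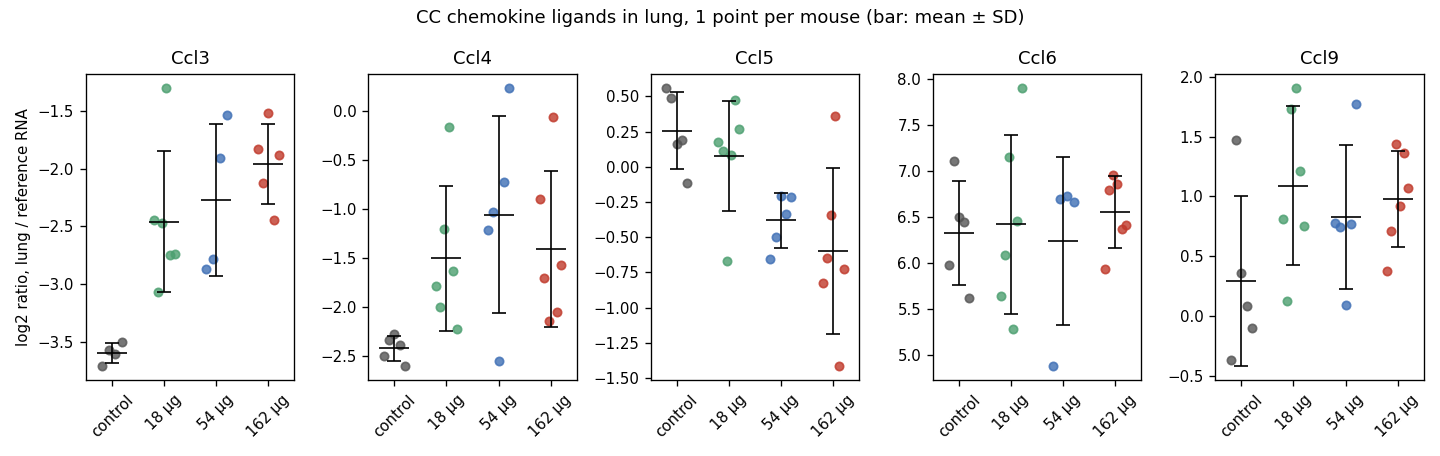
Log2 ratio of lung to reference RNA for each ligand, 1 panel per gene with its own axis, 1 point per mouse, and the mean ± SD of each group. All exposed mice with a value lie above all controls for Ccl3, the 5 mice at 54 µg lie below all controls for Ccl5, and the groups overlap for Ccl6 and Ccl9.

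Ccl3 was low and uniform in the control lungs with a value and higher in every exposed mouse with one. The log2 ratio was -3.72, -3.58, -3.60 and -3.51 in the 4 controls that had one. At 18 µg it was -2.45, -3.07, -2.47, -1.30, -2.75 and -2.74 in the 6 mice. At 54 µg 4 of 5 mice had a value, -2.87, -2.79, -1.91 and -1.53, and at 162 µg 5 of 6 had one, -1.83, -2.13, -1.51, -2.45 and -1.89. No exposed mouse overlapped the controls at any dose, a pattern met by 1.21% of expressed probes at 18 µg, 1.01% at 54 µg and 2.76% at 162 µg. The spread between mice was wider after exposure, with a SD of 0.09 (n = 4) in controls and of 0.61 (n = 6), 0.66 (n = 4) and 0.35 (n = 5) over the rising doses. That control SD leaves out replicate 3, whose spot was marked as an outlier and gave -3.19 when kept, above the other controls.

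The mean log2 ratio of Ccl3 was -3.60 in controls and stood at -2.46, -2.27 and -1.96 with rising dose. Against controls, limma put the log2 change of Ccl3 at 18 µg at 0.98 (SE 0.30, adjusted p = 0.112), and at 54 µg at 1.10 (SE 0.34, adjusted p = 0.294). For 162 µg the estimate was 1.43 (SE 0.32, 95% interval 0.76 to 2.10, adjusted p = 0.0143). The means stand in the order of dose, but neighbouring doses did not differ beyond their spread. The difference of 162 µg from 18 µg was 0.45 (95% interval -0.13 to 1.03, adjusted p = 0.473) and that of 162 µg from 54 µg 0.33 (95% interval -0.34 to 1.00, adjusted p = 0.901). Within slides, Ccl3 was above the control of the same slide on 4 of 4 slides at 18 µg, 2 of 2 at 54 µg and 3 of 3 at 162 µg, where the difference ran from 1.06 to 1.75.

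The 3 missing Ccl3 values belonged to spots that the scanner software marks as outliers, all on the same slide. With those spots kept the missing ratios were -3.19 in the control, -2.53 at 54 µg and -2.49 at 162 µg, and the change at 162 µg was 1.28 (adjusted p = 0.011). The call at 162 µg was lost without 162 µg replicate 1 (1.26, adjusted p = 0.0659), with median centring (1.04, adjusted p = 0.395) and with no normalization (0.95, adjusted p = 0.92). At 18 µg Ccl3 was called when slide was a random block (1.07, adjusted p = 0.0493), and at 54 µg it was called without 54 µg replicate 3 (1.44, adjusted p = 0.0297).

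Ccl4, the neighbour of Ccl3 in the genome, was also uniform in control lungs and uneven in exposed ones. Its log2 ratio was -2.50, -2.34, -2.28, -2.39 and -2.61 in the 5 controls. At 18 µg the lowest, median and highest of 6 mice were -2.23, -1.71 and -0.16, and at 162 µg they were -2.15, -1.64 and -0.05. All 6 mice at each of these doses lay above all controls, as was so for 1.21% of expressed probes at 18 µg and 2.76% at 162 µg. At 54 µg the 5 mice had -1.21, -1.03, -2.55, -0.72 and 0.24, so that 4 lay above all controls and replicate 3 lay within them. The SD was 0.13 (n = 5) in controls and 0.74 (n = 6), 1.01 (n = 5) and 0.80 (n = 6) at the 3 doses.

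Ccl4 was called at none of the 3 doses. With rising dose, limma gave log2 changes of 0.79 (SE 0.47, adjusted p = 0.462), 1.22 (SE 0.50, adjusted p = 0.470) and 0.87 (SE 0.47, adjusted p = 0.360). The 95% interval at 162 µg ran from -0.12 to 1.86. On each slide with a control the exposed mice had the higher value, on 4 of 4 slides at 18 µg, 3 of 3 at 54 µg and 4 of 4 at 162 µg. Without 54 µg replicate 3, whose ratio was the lowest of the exposed mice, Ccl4 was called at 54 µg (1.77, adjusted p = 0.00814).

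**Figure D2:**
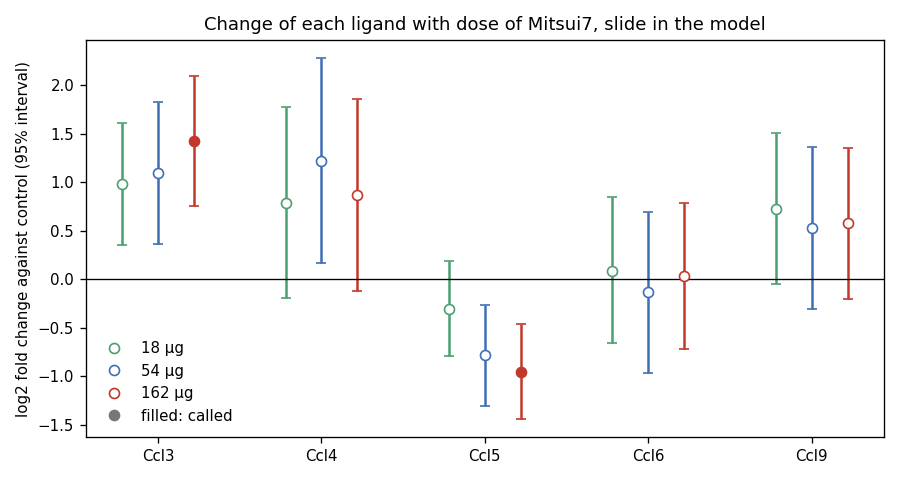
Log2 fold change of each ligand against control at 18, 54 and 162 µg from limma with slide in the model, with 95% intervals, and filled points for the changes that were called. The filled points are Ccl3 at 162 µg (1.43) and Ccl5 at 162 µg (-0.95), and the Ccl6 estimates lie within 0.13 of 0.

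Mice high in Ccl3 were also high in Ccl4 within a dose group. Over the 19 mice with both values, deviations from the group means had a Pearson's r of 0.85 (p = 0.00021, adjusted p = 0.00246, permutation test within groups, two-sided) and a Spearman's rho of 0.77 (p = 0.00177, adjusted p = 0.0133, permutation test). Without the 2 mice farthest from the median of Ccl3, r was 0.75, and after dose and slide were both fitted it was 0.86. Slides hold too few arrays for a value within each. The relation was 1 of 12 computed, and for the other 9 pairs of ligands r lay between -0.11 and 0.49, with adjusted p from 0.136 to 0.958 in the permutation test. The highest Ccl3 and Ccl4 ratios at 18 µg belonged to the same mouse, replicate 4, and so did those at 54 µg, replicate 5, and at 162 µg, replicate 4.

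**Figure D3:**
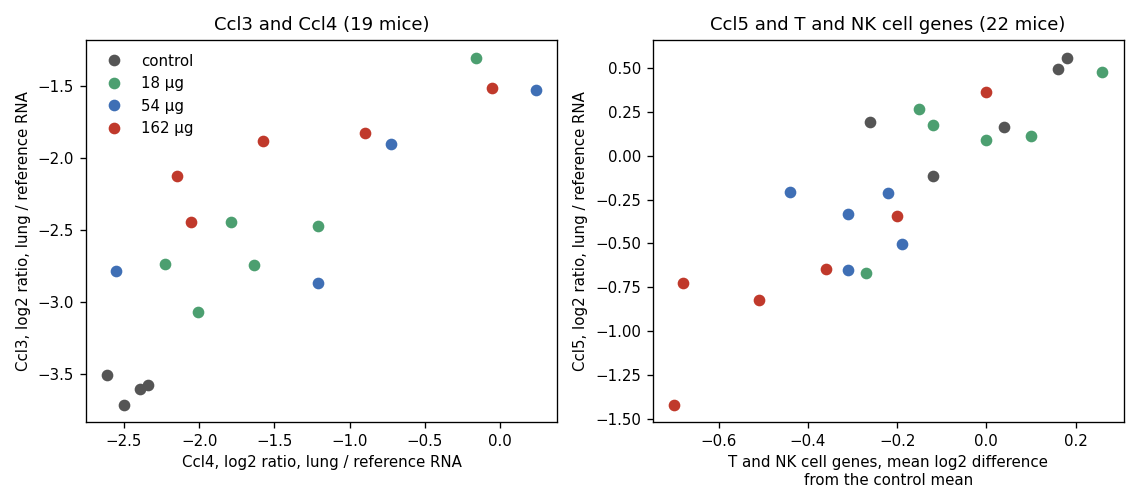
Left, log2 ratio of Ccl3 against that of Ccl4 in 19 mice, and right, log2 ratio of Ccl5 against the mean log2 difference of 16 T and NK cell genes from the control mean in 22 mice, coloured by dose. Controls sit at the lower left of the first panel, and mice at 162 µg with the lowest Ccl5 ratios also have low values of the T and NK cell genes in the second.

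Ccl5 was lower at 162 µg than in controls. Its log2 ratio was 0.56, 0.49, 0.16, 0.19 and -0.11 in the 5 controls. At 18 µg the lowest, median and highest of 6 mice were -0.67, 0.14 and 0.48, which overlaps the controls in 5 of 6 mice. At 54 µg the ratios were -0.65, -0.50, -0.20, -0.33 and -0.21, all of them below every control, as was so for 1.35% of expressed probes. At 162 µg they were -0.82, -0.64, -0.35, 0.36, -1.42 and -0.72. There, 5 of 6 mice lay below all controls and replicate 4 lay among them.

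The group means of Ccl5 were 0.26 ± 0.27 (SD, n = 5) in controls and, with rising dose, 0.07 ± 0.39 (SD, n = 6), -0.38 ± 0.19 (SD, n = 5) and -0.60 ± 0.59 (SD, n = 6). From the lowest to the highest dose, the log2 changes in limma were -0.30 (SE 0.23, adjusted p = 0.609), -0.78 (SE 0.25, adjusted p = 0.298) and -0.95 (SE 0.23, adjusted p = 0.0221). On slides with a control, Ccl5 was lower at 162 µg on 4 of 4 (differences of -1.32 to -0.54) and at 54 µg on 3 of 3. Neighbouring doses did not differ beyond their spread, and 162 µg minus 18 µg was -0.65 (95% interval -1.11 to -0.19, adjusted p = 0.117). That difference was called without 162 µg replicate 4 (-0.83, adjusted p = 0.0357).

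The call of Ccl5 at 162 µg rested on several mice and on the scaling. It was lost without control replicate 1 (adjusted p = 0.0503), 2 (adjusted p = 0.0617), 3 (adjusted p = 0.0556) or 4 (adjusted p = 0.059), and without 162 µg replicate 1 (adjusted p = 0.0783) or 5 (adjusted p = 0.0588). It was also lost with median centring, with no normalization, with the Cy5 channel alone, in the deposited log2 table and with a replicate block beside slide (-0.90, adjusted p = 0.275). In these fits and those without single mice the log2 fold change stayed between -1.17 and -0.74.

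Some markers of T and NK cells, lymphocytes that make Ccl5, were lower at 162 µg as well. Of 16 such genes, all expressed, 3 were called lower at 162 µg and none at 18 or 54 µg. These were granzyme A (Gzma, -1.38, adjusted p = 0.0448) and the T cell receptor kinases Lck (-0.83, adjusted p = 0.0047) and Zap70 (-0.71, adjusted p = 0.0192). The mean of the 16 genes, set against the control mean, ran from -0.26 to 0.18 in controls, from -0.27 to 0.26 at 18 µg, from -0.44 to -0.19 at 54 µg and from -0.70 to 0.00 at 162 µg. With single mice left out, 1 to 5 of the 16 were called at 162 µg, with median centring 1 and with no normalization 0. Of 8 B cell genes, 3 were called lower at 162 µg. Their part in the result for Ccl5 was not tested, and in whole lung RNA fewer cells of a type and less RNA per cell cannot be told apart.

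Across mice, deviations of Ccl5 and of the T and NK cell mean from their group means had a Pearson's r of 0.77 over 22 mice (p = 0.00041, adjusted p = 0.00246, permutation test within groups, two-sided). Spearman's rho was 0.70 (p = 0.00221, adjusted p = 0.0133, permutation test). Without the 2 mice farthest from the median of the T and NK cell mean r was 0.62, and after dose and slide it was 0.85. This relation was chosen after the values were seen, and the mouse at 162 µg with the lowest Ccl5 ratio, replicate 5, also had the lowest T and NK cell mean of all 22.

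Ccl6 was called at no dose, and its estimates lay near 0. This ligand had a log2 ratio of 5.98, 7.10, 6.50, 6.44 and 5.62 in controls, so its signal in lung far exceeded that in the reference RNA on this probe. At 18 µg the lowest, median and highest ratio were 5.28, 6.27 and 7.89, in the 4 mice with a value at 54 µg they were 4.87, 6.68 and 6.72, and at 162 µg 5.93, 6.60 and 6.96. The groups overlapped throughout. The Cy3 signal of the reference on this probe was dim, from 38.5 to 334. On the Ccr1 probe, which gave no usable signal, the Cy3 signal ran from 22 to 53, so the lowest Ccl6 value lay at that level. The part of the Cy3 background in the Ccl6 ratios was not tested. Ccl6 had log2 changes of 0.09 (95% interval -0.66 to 0.85) at 18 µg, -0.13 (95% interval -0.97 to 0.70) at 54 µg and 0.03 (95% interval -0.72 to 0.79) at 162 µg, with adjusted p of 0.941, 0.978 and 0.984 in limma. These intervals leave room for a change of more than 1.5-fold either way. The sign of the Ccl6 estimates turned under some of the scalings.

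Ccl9, next to Ccl6 in the genome, had higher means at all doses without a call. Its log2 ratio was -0.37, 1.47, 0.36, 0.08 and -0.10 in controls. At 18 µg the lowest, median and highest of 6 mice were 0.13, 1.01 and 1.90, and at 162 µg they were 0.38, 0.99 and 1.44. The 5 mice at 54 µg had 0.77, 0.74, 0.09, 0.77 and 1.77. All groups overlapped the controls, whose replicate 2 stood above most exposed mice. The log2 changes in limma, in order of dose, were 0.73 (SE 0.37, adjusted p = 0.369), 0.53 (SE 0.39, adjusted p = 0.806) and 0.58 (SE 0.37, adjusted p = 0.470).

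Without control replicate 2, Ccl9 was called at 18 µg (1.23, adjusted p = 0.0454) and at 162 µg (1.08, adjusted p = 0.0436). That mouse also had the highest mean of 14 neutrophil genes among the controls, 1.49 against -0.69 to -0.18 in the other 4. At 18 µg this mean ran from -0.61 to -0.08, at 54 µg from -0.35 to 0.36 and at 162 µg from -0.59 to 1.89. Deviations of Ccl9 and of the neutrophil mean had a Pearson's r of 0.34 (p = 0.143, adjusted p = 0.344, permutation test within groups) and a Spearman's rho of 0.34 (p = 0.128, adjusted p = 0.384, permutation test) over 22 mice, and r was 0.22 without the 2 mice farthest from the median of the neutrophil mean and 0.59 after dose and slide. The neutrophil genes' part in the Ccl9 values was not tested.

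The receptor Ccr1 gave no usable signal on its single probe. Its Cy5 signal ran from 55 to 84 on the 22 arrays, well above background by the scanner software on none, and it exceeded the limit from the negative controls on 1 array, 54 µg replicate 1. No fold change is therefore given. The highest Cy3 signal, from the reference RNA, was 53. The probes of all 5 ligands were well above background on every array on which they had a value, with lowest Cy5 signals of 121.5 for Ccl3 and 107 for Ccl4. Both lows belonged to 18 µg replicate 6, where the limit was 79.91, and the lowest control signals were 181 and 189. Signals below these control values were also read in 162 µg replicate 6 (Ccl3 141, Ccl4 109, limit 80.1). The same held for 54 µg replicate 3 (Ccl3 178, Ccl4 115, limit 81.89). As no background was subtracted, the floor limits how low a ratio can read on a dim array. Its part in the Ccl3 and Ccl4 values was not tested.

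**Figure D4:**
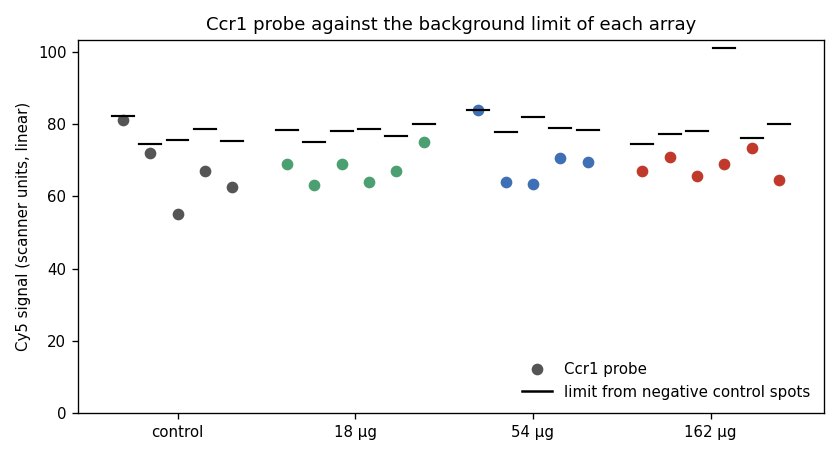
Cy5 signal of the Ccr1 probe on a linear axis for each of 22 arrays by dose, with the limit set by the negative control spots of the same array as a bar. The points lie between 55 and 84, and 1 of them, at 54 µg, reaches above its bar.

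None of the members was called between doses. Over all expressed probes 0.0202% were called for 54 µg minus 18 µg, 3.44% for 162 µg minus 18 µg and 0% for 162 µg minus 54 µg. With p unadjusted, limma put 1 member, Ccl5, below 0.05 between 162 and 18 µg (21% of expressed probes) and none for 54 µg minus 18 µg (12.3%) or 162 µg minus 54 µg (9.99%).

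Downstream of the chemokine receptors, 22 genes of G protein signalling were all expressed. None was called at 18 or 54 µg and 2 were called higher at 162 µg, both encoding GTPase-activating proteins that end G protein signals. Rgs1 rose by 1.27 (SE 0.30, adjusted p = 0.0176) and Rgs16 by 1.51 (SE 0.29, adjusted p = 0.00503). Each was above all controls in 6 of 6 mice, a pattern met by 2.76% of expressed probes. With single mice left out, 1 to 4 of the 22 genes were called at 162 µg. Between 162 and 18 µg, the G protein subunit gene Gng2 was lower by a log2 difference of -0.63 (adjusted p = 0.00436).

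Of 21 genes of NF-kB and its inducing cytokines, 20 were expressed and none was called at 18 or 54 µg. At 162 µg 1 was called, the NF-kB inhibitor gene Nfkbia, up by 0.99 on the log2 scale (SE 0.29, adjusted p = 0.0486). In 3 of 6 mice the Nfkbia ratio exceeded that of each control. In 15 of the 22 fits that left out 1 mouse no gene of the list was called at 162 µg. The median change of the list was 0.10, 0.22 and 0.13 at the 3 doses.

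Several other CC chemokine ligands were called higher, and the difference of this list from the macrophage inflammatory proteins was not tested. Of 13 genes 10 were expressed, 2 were called higher at 18 µg, 2 at 54 µg and 4 at 162 µg, and none was called lower. Their median log2 fold change was 1.54, 1.52 and 1.29. The monocyte attractant Ccl2 was called at 54 µg (2.67, adjusted p = 0.0499) and 162 µg (2.21, adjusted p = 0.0123), and its relative Ccl7 at 18 µg (2.75, adjusted p = 0.0434) and 162 µg (2.47, adjusted p = 0.028). Ccl17, which attracts T cells through Ccr4, was called at all doses (1.75, 1.78 and 1.46, adjusted p = 0.0174, 0.0376 and 0.0106). Ccl19, a ligand of Ccr7, was called at 162 µg (0.90, adjusted p = 0.000933). Several of these calls lay close to the threshold. With single mice left out, the number of ligands called ranged from 0 to 7, 0 to 5 and 2 to 6 in order of dose.

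Few markers of the myeloid cells that could carry or make these ligands were called. Of 14 neutrophil genes 1 was called, the decoy receptor gene Il1r2 at 162 µg (2.36, adjusted p = 0.00751), and the median log2 change of the list there was 0.32. With single mice left out, 1 to 4 of the 14 were called at 162 µg, and under the other alternatives 0 to 2. The mean of this list was 1.49 in control replicate 2, against -0.69 to -0.18 in the other controls. Of 10 alveolar macrophage genes, Chil3 was called higher at 18 µg (1.73, adjusted p = 0.0457) and the scavenger receptor gene Marco at 162 µg (1.51, adjusted p = 0.0046). Of 9 genes of monocytes and recruited macrophages, arginase 1 (Arg1) was called higher at all doses (2.06, 2.92 and 1.76, adjusted p = 0.0407, 0.0332 and 0.0327) and osteopontin (Spp1) at 162 µg (0.80, adjusted p = 0.00673), while the median of that list at 162 µg was -0.41. Epx and Prg3 of the 5 eosinophil genes were not expressed, and none of the other 3 was called. The mean of the alveolar macrophage genes, set against the control mean, ran from -0.13 to 0.17 in controls and from -0.40 to 0.29 at 162 µg. No alveolar macrophage gene was called at 18 µg in 15 of the 22 fits that left out 1 mouse, and no gene of monocytes and recruited macrophages in 13 of them. The part of these markers in the results for the ligands was not tested.

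The genes whose ratios followed each ligand most closely over the mice were found among 15001 to 15495 expressed genes and are given as a description. For Ccl3 they were the cytokine genes Il6 (Pearson's r of 0.92 over 19 mice) and Gdf15 (0.92) and the RNA helicase gene Ddx21 (0.91). For Ccl4 they were Serpina3f (0.89 over 22 mice), Phox2a (0.89) and Ccl2 (0.87). For Ccl5 they were Klra16 (0.91 over 22 mice) and Klra4 (0.81), of a family of NK cell receptors whose near-identical members may share a probe's signal, and Lck (0.81). The closest were Alas2 (0.82 over 21 mice), Adcy4 and Robo4 (both 0.80) for Ccl6, and Sctr (0.82 over 22 mice), Zbp1 and A4galt (both 0.77) for Ccl9. The mice of these correlations include the dose groups and share slides, so dose and slide both enter them.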

How the data were processed

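For each array the authors deposited intensity values, median pixel signals per spot and channel without background subtraction or normalization, exported with Feature Extraction (10.7.3.1, per the headers). Their processed log2 values, deposited by the authors as 1 table and used as an alternative, have a scale that differs between arrays (slope against the ratios computed here 0.587 to 0.996, column medians -0.0516 to -0.0166). The labels state 6 mice per group, and the 22 arrays analysed here include 5 controls and 5 mice at 54 µg.

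Spots marked as outliers were left out, log2 ratios (Cy5 over Cy3, no background subtraction) were normalized by loess within arrays (span 0.3), and replicate spots were summarised by their median. The limit for expression was the trimmed mean (5%) plus 3 trimmed SD of the 308 negative control spots. limma 3.58.1 in R 4.3.3 was fitted with dose and slide over 22 arrays (12 residual degrees of freedom), in place of the MAANOVA of the study's methods. It was run on simulated data with normal noise of the same spread in every group. That run could not show how the fit handles spreads that differ between groups, as those of Ccl3 and Ccl4 do. Probes were named through RefSeq accessions in a GRCm38.p6 table. Ly6g and Ly6c2 had no named probe. A list of further chemokine receptors is not reported here. Genes named are the members, list genes called at a dose and, for each ligand, the 3 genes most like it by Pearson's r. A gene is represented by its brightest probe. The members and the lists were chosen with earlier results of these data known. Alternatives covered background correction, normalization, the slide and replicate terms, filters, the fold threshold, the groups fitted and each mouse left out. With arrays, the number of mice limits the precision (median standard error of a log2 fold change 0.131 to 0.141 over expressed probes at the 3 doses). Identical arrays were looked for, and the highest correlation between 2 arrays was 0.959.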

Additional observations from a re-analysis of the deposited data

Results flagged for a closer look

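In 3 of the 20 combinations of ligand and group that were examined, 1 mouse stood far from the others by Dixon's criterion at the 95% level, where chance marks about 1 in 20. Replicate 4 at 18 µg had a Ccl3 log2 ratio of -1.30, above the other 5 mice, and it also had the highest Ccl4 ratio of its group. Without it the Ccl3 log2 fold change at 18 µg was 0.84. Replicate 3 at 18 µg had a Ccl5 ratio of -0.67, below the other 5 mice, and without it the Ccl5 change at 18 µg was -0.12. Replicate 1 at 54 µg had a Ccl6 ratio of 4.87, below the other 3 mice with a value. Its Cy3 signal from the reference was 334, against 99 to 123 in those 3, and its Cy5 channel alone, scaled to the array, gave 4.94, within their range of 4.72 to 5.24. Without it the Ccl6 change at 54 µg was 0.14.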

How the results depend on the processing

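Of 646 fold changes of the ligands under alternatives, 596 kept their direction and their side of the threshold, 25 turned sign, all of them for Ccl6, whose change was near 0, and 25 crossed the threshold. The 646 include settings that could not alter a fold change. Filters and the fold threshold could move only the call, and scaling of intensities between arrays left the log2 ratios as they were. No member passed at 54 µg minus 18 µg or 162 µg minus 54 µg under any alternative. The number of members called at 162 µg, 2, became 0 with median centring, 0 with no normalization and 1 with the Cy5 channel alone, the deposited table or a replicate block beside slide. The median change of all expressed probes moved to -0.15 at 18 µg and -0.12 at 162 µg with median centring, to -0.30, 0.13 and -0.14 at the 3 doses with no normalization, and to 0.17 at 18 µg with Cy5 alone. At 18 µg 1 member, Ccl3, was called with slide as a random block, and at 54 µg 3 (Ccl3, Ccl4 and Ccl9) in a fit of only the 2 groups compared. The causes were not tested. With single mice left out the number ranged from 0 to 1 at 18 µg (1 without control replicate 2), from 0 to 2 at 54 µg (2 without 54 µg replicate 3), from 0 to 2 at 162 µg (0 without 162 µg replicate 1), and from 0 to 1 for 162 µg minus 18 µg (1 without 162 µg replicate 4). Over all probes the number called ranged from 2 (no normalization) to 858 (replicate block in place of slide) around 579 at 18 µg, from 0 to 894 (fit of 2 groups) around 91 at 54 µg, and from 6 (no normalization) to 3247 (no minimum fold) around 1987 at 162 µg.

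The change of Ccl6 became -0.36 at 18 µg and -0.29 at 162 µg with median centring, -0.52, 0.10 and -0.31 at the 3 doses with no normalization, 0.39 at 54 µg with Cy5 alone, -0.07 at 162 µg in the deposited table and 0.07 at 54 µg in the fit of 2 groups. With single mice left out it ran from -0.15 to 0.41 at 18 µg, from -0.42 to 0.14 at 54 µg and from -0.21 to 0.35 at 162 µg.

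The replicate numbers were not taken to pair the samples, because the labels tie nothing to a number and not every pair with the same number correlated above 0.1. As a hint from the data, deviations of such pairs had a median correlation of 0.172 (20 of 31 pairs over 0.1, lowest -0.169), or 0.107 on different slides, against -0.0558 (40 of 150 over 0.1) for pairs with different numbers, and 12 of 22 samples correlated best with their own number. With the replicate block in place of slide, 1 member was called at 18 µg, Ccl3 (1.20, adjusted p = 0.0348), and with the block beside slide 1 was called at 18 µg, Ccl3 (1.02, adjusted p = 0.0325), and 1 at 162 µg, Ccl3, with Ccl5 lost (-0.90, adjusted p = 0.275). The change of Ccl6 with the replicate block in place of slide was -0.04 at 18 µg and 0.04 at 54 µg, and beside slide -0.16 at 18 µg and -0.15 at 162 µg. Each member had a single probe, so the planned comparison with other probes gave no value.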
